A study of Mus musculus with 8 samples.

Results

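The genes described here are neurexins, neuroligins and other adhesion or scaffold genes of synapses: *Nrxn2*, *Nrxn3*, *Nlgn1*, *Nlgn2*, *Nlgn3*, *Gphn*, *Dag1*, *Cntnap2* and *Il1rapl1*. They were chosen by name, and these 9 were all found among the 23335 gene names of the count table, 3 of them with more than 1 row. The counts are of molecular tags (UMI, 1 per amplified messenger RNA molecule) in single interneurons picked by hand from the frontal cortex of mice. ChC, the chandelier cells, came from *Nkx2.1*-CreER; Ai14 mice, in which tamoxifen given before birth turns on a red reporter in cells that then express *Nkx2-1*. Pv cells came from Pv-ires-Cre; Ai14 mice, in which the same reporter is turned on by parvalbumin expression. All 4 mice were female, and the titles of all 8 libraries call the mice WT. Apart from the tamoxifen, which the labels give for the *Nkx2.1*-CreER line, no treatment is named. The ChC animals were 31 days old (animal 1) and 32 days old (animal 2), and the Pv animals 29 days (animal 3) and 35 days (animal 4). Each animal gave a pair of library batches of up to 16 cells, batches 1 to 8 in the order of the animals, and 63 cells of each type had counts. Age, mouse line, tamoxifen and flow cell go with the cell type or the animal, so a difference between ChC and Pv cells and one between lines, tamoxifen or flow cells cannot be told apart.

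Neurexins are adhesion proteins of the presynaptic membrane, and neuroligins are their partners across the synaptic cleft. At inhibitory synapses, neuroligin 2 and the scaffold protein gephyrin hold GABA receptors in place, and dystroglycan is a further neurexin ligand found at a subset of these contacts. An interneuron uses such genes on both sides, in the synapses it makes on other neurons and in those it receives.

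With all rows of a gene name summed, depth in ChC was 527743 and 657957 UMI for the batches of animal 1, and 2898413 and 1307666 UMI for those of animal 2. In Pv, depth was 456458 and 501563 UMI for animal 3, and 370238 and 921212 UMI for animal 4. ChC had a median of 39200 UMI per cell and Pv 27116, and fewer than 10000 UMI were counted in 14 ChC and 4 Pv cells. Levels are given as CPM, the UMI of a gene scaled to a fixed total per batch, with TMM factors between batches. *Pvalb*, the gene that drives the Pv line, was at 1009 ± 468 CPM (SD, n = 4 batches) in Pv and 131 ± 50.3 CPM (SD, n = 4) in ChC. Other markers of parvalbumin cells went both ways. *Kcnc1* had means of 934 CPM in ChC and 638 CPM in Pv. *Tac1* had 519 and 265 CPM, with 2056 CPM in ChC batch 2. Means were higher in Pv for *Kcnc2* (280 CPM in ChC, 679 CPM in Pv) and *Syt2* (7.35 and 34.3 CPM). *Slc32a1*, the vesicular GABA transporter, was found in every cell, at 2070 ± 563 CPM (SD, n = 4) in ChC and 2087 ± 916 CPM (SD, n = 4) in Pv.

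The 8 batches stood apart from each other more than the cells within them did. Over the 5165 genes with a UMI in at least 50% of cells, the median Spearman correlation of CPM between cells was 0.782 for pairs of cells from the same batch. It was 0.355 for pairs from the same animal but different batches, 0.359 for pairs from different animals of a cell type and 0.321 for ChC paired with Pv cells. These are descriptions over 108 cells of at least 10000 UMI, and cells of a batch share a library and an animal. A pair of batches from the same animal was thus about as unlike as a pair from different animals. Between batches of the same animal, the median gene differed in CPM by a factor of 2.73 (animal 1), 2.06 (animal 2), 2.93 (animal 3) and 2.16 (animal 4), counting error included. What sets batches apart was not tested. The cells of a batch are therefore not taken as replicates, and each value below is given by batch.

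Differences between cell types were tested on UMI summed per animal, 2 ChC against 2 Pv animals, with edgeR's quasi-likelihood test and Benjamini-Hochberg adjustment over 9829 genes. None of the 9 genes passed an adjusted p of 0.05, and neither did any other gene (0.0% of genes tested). *Pvalb*, the gene that drives the Pv line, had a log2 fold change of -2.99 without overlap of batches (adjusted p = 0.598 from edgeR). With batches as samples its adjusted p was 0.1135. A gene that did not pass is therefore not shown to be equal between cell types. At an unadjusted p under 0.05 there were 616 genes, among them *Nrxn3* and *Cntnap2*. DESeq2 on the same sums called 151 genes, and none of the 9, but it gave no adjusted p for *Nlgn3*. *Pvalb* was among the genes it called (adjusted p = 0.0249 from DESeq2). With the 8 batches as samples, edgeR called 5 of 6481 genes (0.0771%), none of the 9. All 5 were higher in ChC, among them *Pthlh*, *Trib2*, *Unc5b* and *Zfp804b*, named after their values were seen. The fitted level was higher in ChC for 7 of the 9 genes and higher in Pv for 2, with a median log2 fold change of 0.86. Over all genes tested, 51.5% were higher in ChC and the median was 0.04. The 9 genes were not tested as a set.

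*Nrxn3* encodes neurexin 3 (chromosome 12, 89961320 to 91573373, plus strand; mm9, as for all positions here). Its summed level was 9641 and 8265 CPM in the batches of ChC animal 1, and 6846 and 1903 CPM in those of animal 2. In Pv it was 1789 and 6073 CPM in animal 3, and 2562 and 2397 CPM in animal 4. The groups overlapped through batch 4 of ChC, which lay below 3 of the Pv batches, while the other 3 ChC batches were above every Pv batch. The means were 6664 ± 3373 CPM (SD, n = 4) in ChC and 3205 ± 1941 CPM (SD, n = 4) in Pv. Fitted per animal, ChC over Pv gave a log2 fold change of 1.12 (standard error 0.42, adjusted p = 0.716 from edgeR). The adjusted p did not pass under any alternative. It was lowest, at 0.0853 from edgeR, without the filter on low counts, a setting in which 80 of all genes passed. Every cell of both types had a UMI of *Nrxn3*.

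*Nrxn2*, which encodes neurexin 2 (chromosome 19, 6418738 to 6533217, plus strand), was found in all batches. In ChC it was at 367 and 858 CPM in animal 1 and at 289 and 612 CPM in animal 2. Pv batches were at 249 and 109 CPM in animal 3 and at 291 and 442 CPM in animal 4. The groups overlapped, and the batches of an animal differed by a factor of between 1.52 and 2.34. Its log2 fold change was 0.86 (standard error 0.68, adjusted p = 0.953 from edgeR). A UMI of *Nrxn2* was seen in 60 of 63 ChC and 59 of 63 Pv cells.

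**Figure D1:**
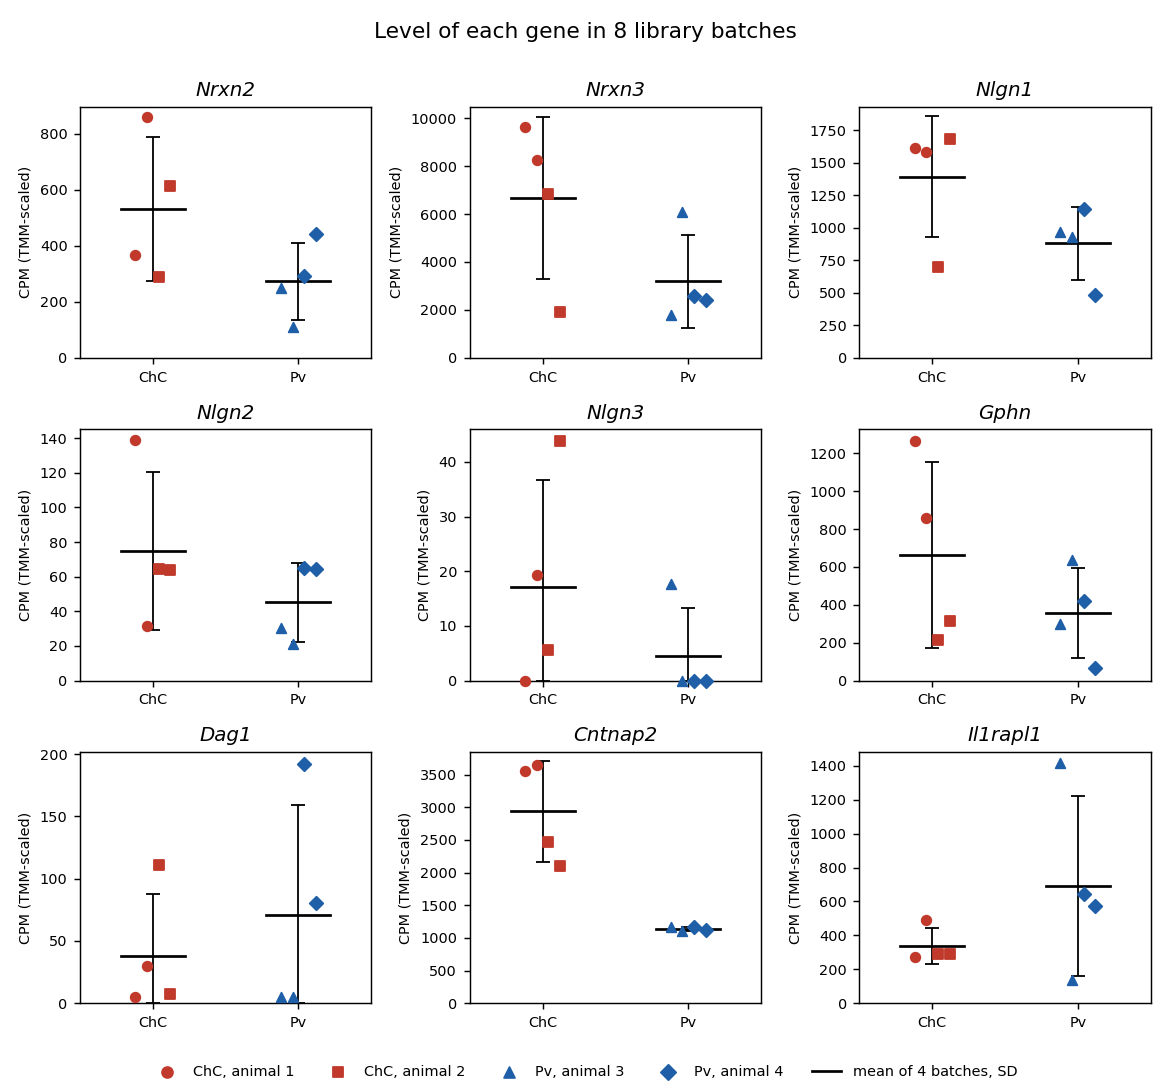
Level of each gene in the 8 library batches, in CPM with TMM scaling on linear axes that start at 0. Points are batches, with a marker for each animal, lines are means and bars the SD over 4 batches, cut at 0 where the SD exceeds the mean. *Cntnap2* is the gene whose ChC batches, at 2097 to 3642 CPM, all lie above its Pv batches, at 1102 to 1165 CPM.

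*Nlgn1* encodes the neuroligin known mainly from excitatory synapses (chromosome 3, 25330763 to 26230831, minus strand). It was at 1615 and 1586 CPM in ChC animal 1, and at 695 and 1679 CPM in animal 2. Pv animal 3 had 966 and 933 CPM, and animal 4 had 1142 and 479 CPM. Batch 3 of ChC, at 695 CPM, was below 3 of the 4 Pv batches, and the other 3 ChC batches were above all of them. Between cell types the log2 fold change was 0.66 (standard error 0.51, adjusted p = 0.953 from edgeR). All 63 Pv cells and 62 of 63 ChC cells had a UMI of *Nlgn1*.

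*Nlgn2*, the neuroligin of inhibitory synapses (chromosome 11, 69636625 to 69648351, minus strand), had 330 UMI in ChC and 103 in Pv. Its level was 139 and 31.5 CPM in ChC animal 1, and 64.5 and 63.9 CPM in animal 2. Pv animal 3 had 30.2 and 20.8 CPM, and animal 4 had 64.9 and 64.6 CPM. The batches of animals 2 and 4 were nearly level although these animals differ in cell type, and the groups overlapped. Means of 74.8 ± 45.6 CPM in ChC and 45.1 ± 23 CPM in Pv (SD, n = 4 each) differed by less than the SD of ChC. The fit per animal gave a log2 fold change of 0.67 (standard error 1.15, adjusted p = 0.991 from edgeR). It rests on 78 and 252 UMI in the ChC animals and on 21 and 82 UMI in the Pv animals, with 9 to 176 UMI in a batch. A UMI was seen in 46 of 63 ChC and 42 of 63 Pv cells.

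*Nlgn3*, a neuroligin found at both kinds of synapse (chromosome X, 98494518 to 98516689, plus strand), had 78 UMI in ChC and 7 in Pv. In ChC it was at 0 and 19.2 CPM in animal 1 and at 5.50 and 43.8 CPM in animal 2. In Pv all 7 UMI came from 4 of the 16 cells of batch 5 of animal 3, at 17.6 CPM, and batches 6, 7 and 8 had none. A count of 0 allows up to 3 UMI, or 5.68 CPM of the batch total in batch 1, 5.98 in batch 6, 8.10 in batch 7 and 3.26 in batch 8. These limits are taken on the whole batch total without TMM factors, so they are not on the scale of the levels above. Within ChC the gene went from 0 of 16 cells in batch 1 to 13 of 15 cells in batch 4, and the latter held 52 of the 78 UMI. A log2 fold change of 1.76 was fitted (standard error 1.80, adjusted p = 0.988 from edgeR), and the gene was too sparse to be tested with batches as samples.

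*Gphn*, which encodes gephyrin (chromosome 12, 79327642 to 79785756, plus strand), was at 1267 and 857 CPM in ChC animal 1 and at 215 and 315 CPM in animal 2. In Pv it was at 297 and 637 CPM in animal 3, and at 420 and 66.9 CPM in animal 4. Both batches of ChC animal 1 were above every other batch, and those of ChC animal 2 lay within the range of the Pv batches. The log2 fold change was 0.95 (standard error 0.83, adjusted p = 0.976 from edgeR), and without animal 1 it was -0.38. All 63 Pv and 60 of 63 ChC cells had a UMI of *Gphn*, and so did every cell with a UMI of *Nlgn2*.

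*Dag1*, which encodes dystroglycan (chromosome 9, 108108289 to 108166067, minus strand), had, among the 8 genes with a UMI in every batch, the largest gap between batches of the same animal, a factor of 14.6 in ChC animal 2, against a median of 2.41 for genes within 1.5-fold of its UMI there. It was at 4.64 and 29.7 CPM in ChC animal 1, and at 111 and 7.57 CPM in animal 2. Pv animal 3 had 5.03 and 4.63 CPM, and animal 4 had 192 and 80.5 CPM. Batch 3 held 302 of the 330 ChC UMI, and animal 4 held 145 of the 149 Pv UMI. In cells, a UMI was seen in 14 of 16 cells of batch 3 but in 5 of 15 cells of batch 4, from the same animal. In Pv it was seen in 2 of 16 and 2 of 15 cells of animal 3, and in 15 of 16 and 14 of 16 cells of animal 4. The log2 fold change was -0.23 (standard error 1.54, adjusted p = 0.999 from edgeR). It was 0.48 without animal 1 and 3.32 without animal 4, so its direction rested on which animals were included.

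*Cntnap2*, which encodes Caspr2, a neurexin-like protein that gathers potassium channels along axons (chromosome 6, 45010060 to 47251370, plus strand), was at 3555 and 3642 CPM in ChC animal 1 and at 2466 and 2097 CPM in animal 2. Pv batches were at 1163 and 1102 CPM in animal 3, and at 1165 and 1125 CPM in animal 4. It was the only one of the 9 genes whose batches did not overlap between cell types, with the lowest ChC batch at 2097 and the highest Pv batch at 1165 CPM. Of the 6481 genes tested with batches as samples, 2.89% had all ChC batches above all Pv batches and 1.77% the reverse, and of the 8 members among them these were 1 and 0.

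The mean of *Cntnap2* was 2940 ± 776 CPM (SD, n = 4) in ChC and 1139 ± 30.6 CPM (SD, n = 4) in Pv. Its log2 fold change was 1.39 (standard error 0.43, adjusted p = 0.636 from edgeR) with animals as samples and 1.37 (adjusted p = 0.333) with batches as samples. The adjusted p did not pass under any alternative and was lowest, at 0.151, without the filter on low counts. Batches of the same animal differed by a factor of 1.02 (animal 1), 1.18 (animal 2), 1.05 (animal 3) and 1.04 (animal 4). For genes within 1.5-fold of its UMI in the same animals, itself included (20, 30, 171 and 119 genes), the median factors were 1.38, 1.44, 1.93 and 1.90. Every cell had a UMI of *Cntnap2*.

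*Il1rapl1*, a postsynaptic receptor-like protein that binds the phosphatase encoded by *Ptprd* (chromosome X, 83992581 to 85360962, minus strand), was the other gene with a higher fitted level in Pv. It was at 272 and 493 CPM in ChC animal 1, and at 292.5 and 292.8 CPM in animal 2. In Pv it was at 1417 and 137 CPM in animal 3, and at 644 and 571 CPM in animal 4. The Pv batches other than batch 6 were above every ChC batch, and batch 6 was below all of them. The log2 fold change was -0.97 (standard error 0.58, adjusted p = 0.889 from edgeR). The 2 batches of animal 3 differed by a factor of 10.4, against a median of 1.95 for genes within 1.5-fold of its UMI there. A UMI was seen in 62 of 63 ChC and 61 of 63 Pv cells.

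The share of cells with a UMI depends on depth, so it was also computed for 10000 UMI drawn from each cell, leaving out the 14 ChC and 4 Pv cells with fewer. At this depth *Nrxn3* and *Cntnap2* were found in 100% of cells of both types, and *Nlgn1* in 99.97% (ChC) and 99.7% (Pv). *Nrxn2* was found in 97.1% ± 3.28 of ChC and 86.0% ± 14.4 of Pv cells (SD, n = 4 batches each), and *Gphn* in 95.1% ± 6.42 and 86.4% ± 22.2. For *Il1rapl1* the shares were 91.4% ± 5.84 of ChC and 90.6% ± 18.3 of Pv cells. The 3 genes of low count were found in fewer cells. *Nlgn2* was at 46.6% ± 19.3 in ChC and 34.5% ± 14.4 in Pv, *Dag1* at 25% ± 26.6 and 35.8% ± 39.1, and *Nlgn3* at 12.7% ± 13.6 and 2.26% ± 4.53 (SD, n = 4 each). No gene's mean share differed between cell types by more than the larger SD.

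**Figure D2:**
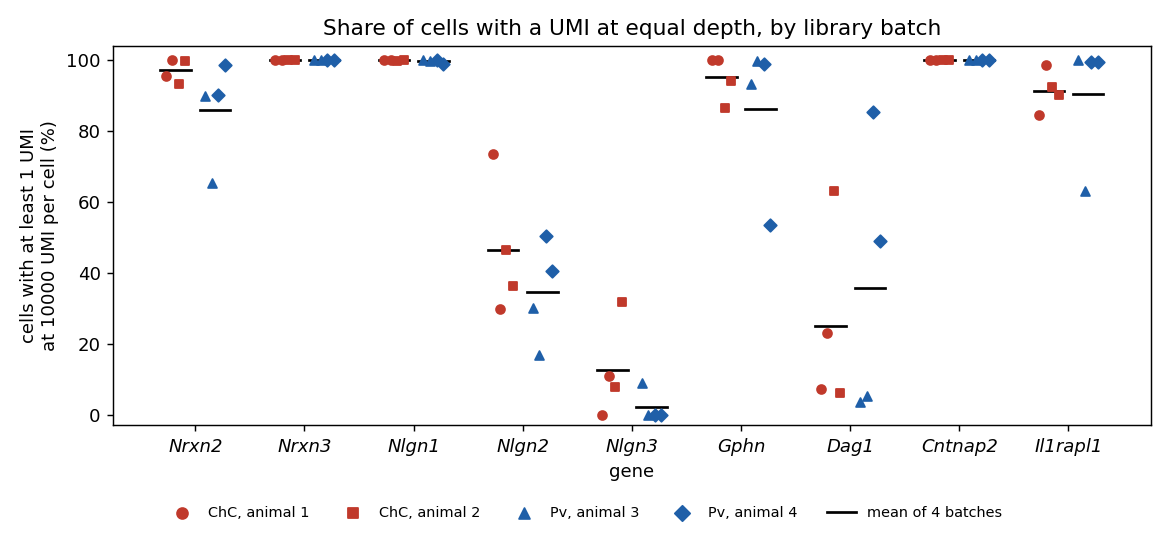
Percentage of cells with at least 1 UMI of each gene when 10000 UMI are drawn from each cell. Points are library batches, with a marker for each animal, and lines are means of 4 batches. *Dag1* runs from 6.24% to 63.2% over the ChC batches and from 3.56% to 85.3% over the Pv batches.

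Unthinned, the median ChC cell had a UMI of 8 of the 9 genes and the median Pv cell of 7. No cell had none of them, and 16 ChC and 2 Pv cells had all 9. At 10000 UMI per cell, the expected number for the median cell was 6.64 genes in ChC and 6.32 in Pv. *Nlgn2* and *Dag1* were seen together in 24 of 63 ChC cells and in 27 of 63 Pv cells. Of the remaining cells, 22 ChC and 15 Pv cells had *Nlgn2* alone, 5 ChC and 6 Pv cells had *Dag1* alone, and 12 ChC and 15 Pv cells had neither. These counts are unthinned and pooled over batches that differed in depth and in *Dag1*. Whether the 2 genes were found together more often than their separate counts give was not tested.

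Within a batch, the spread of a gene over cells was measured as the chi-square of its UMI against shares of the cell totals, divided by the degrees of freedom, where counting error alone gives 1 if each molecule is counted once. It was computed for batches with at least 100 UMI of the gene, beside the median over genes within 1.5-fold of its UMI, the gene itself included. *Nrxn3* had a median over its 8 batches of 2.99, with as few as 3 such genes in a batch and so no comparison. *Nlgn1* had 2.20 beside 1.53 (at least 82 genes in a batch), and *Cntnap2* had 1.78 beside 2.13 (at least 18 genes). In these 3 genes overlapping rows are summed, and a molecule counted more than once raises the measure. With the row of the most UMI alone, chosen after seeing the data, the medians were 1.07 for *Nrxn3*, 1.13 beside 1.09 for *Nlgn1* (at least 169 genes) and 1.55 beside 1.73 for *Cntnap2* (at least 13 genes). *Il1rapl1*, which has 1 row, was at 1.54 beside 1.22 in 7 batches and lay above the median of the comparison genes in 6 of them. *Gphn* had a median of 1.12 beside 1.29 in 7 batches, with a range of 0.852 to 2.70, and *Nrxn2* had 1.11 beside 1.32 in 6 batches, with a range of 0.601 to 1.695. The comparison genes also include genes with summed rows. With the row of the most UMI for every gene, *Gphn* was at 1.11 beside 1.06 and *Nrxn2* at 1.12 beside 1.08. Both medians then lay above the comparison instead of below it, and each gene was above it in 3 batches. In that setting *Il1rapl1* was at 1.54 beside 1.07. *Nlgn2* and *Dag1* reached 100 UMI in batch 3 alone, where they were at 1.02 and 0.75. So *Dag1*, 14.6 times higher in batch 3 than in batch 4, spread no more than counting error over the cells of batch 3. Cells of the same batch were alike by the median correlation of 0.782 given above, which covers only the 5165 genes compared there. Shares of cells and spread are to be read with that likeness as a limit. Whether tags were shared between cells of a batch was not tested.

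The table counts each transcript row over a span of the genome, and the rows of a gene overlap. Among 3225 pairs of rows of the same gene in which the span of the inner row lies within that of the outer, the inner count exceeded the outer in any cell for 6 pairs. Among rows of different genes, a row of at least 20 UMI nested in another gene's span had the larger count in any cell for 1 of 274 pairs on the same strand and 2 of 213 pairs on opposite strands, and the larger total for none. Counts of nested rows thus behaved as if each row held the tags of its whole span, introns and both strands included. A summed gene count can therefore hold a molecule more than once, as for *Nrxn3*, whose 3 rows share their downstream end. No row of another gene overlaps the span of any of the 9 genes.

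The longest *Nrxn3* row spans 1612 kb, of which 0.783% is exon in the GENCODE annotation of the same build, and held 16201 UMI. The row that starts 230.5 kb further downstream held 14285 UMI, and the shortest, of 522 kb, held 5771 UMI. These rows are nested, and the parts that do not overlap, from upstream to downstream, held 8.31, 9.91 and 11.1 UMI per kb over all cells. The UMI upstream of the second row made up 21.9% and 22.8% of the longest row's UMI in ChC animal 1, and 9.24% and 13.1% in animal 2. In Pv they made up 4.2% and 1.03% in animal 3, and 4.03% and 3.37% in animal 4. All ChC batches were above all Pv batches in this share, with means of 16.7% ± 6.65 (SD, n = 4) and 3.15% ± 1.46 (SD, n = 4). The Pv share rests on few UMI, as the longest row held 2672 UMI in Pv and the second row 2602. The segment was singled out after its values were seen, and the difference was not tested. The next segment, from the start of the second row to the start of the shortest, made up 59.7% ± 6.49 of the second row's UMI in ChC and 54.3% ± 6.84 in Pv (SD, n = 4 each), with overlapping batches.

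*Cntnap2* has a row of 2241 kb with 14099 UMI and, within its downstream end, a row of 57 kb with 1116 UMI. The short row held 19.6 UMI per kb, against 5.94 UMI per kb upstream of it, and 6.01% of the short span is annotated as exon against 0.172% upstream. Most *Cntnap2* UMI, 12983 of 14099, still came from upstream of the short row. That upstream part made up 93.2% ± 3.85 of the gene's long row in ChC and 87.8% ± 7.47 in Pv (SD, n = 4 each), with overlapping batches. Each row was also tested as a feature of its own, a setting chosen after seeing the data. The log2 fold change was then 1.49 (adjusted p = 0.553 from edgeR) for the long row and 0.59 (adjusted p = 0.986) for the short row. The batches of the short row overlapped, at 79.8 to 544 CPM per 100 kb in ChC and 33.2 to 284.5 in Pv. The 2 rows of *Nlgn1*, of 900 and 721 kb, held 3615 and 3531 UMI and differ by 84 UMI in 179 kb, so nearly all UMI of the shorter row stand in the sum again. With the row of the most UMI in place of the sum, the log2 fold changes were 1.30 for *Nrxn3*, 1.48 for *Cntnap2* and 0.66 for *Nlgn1*.

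**Figure D3:**
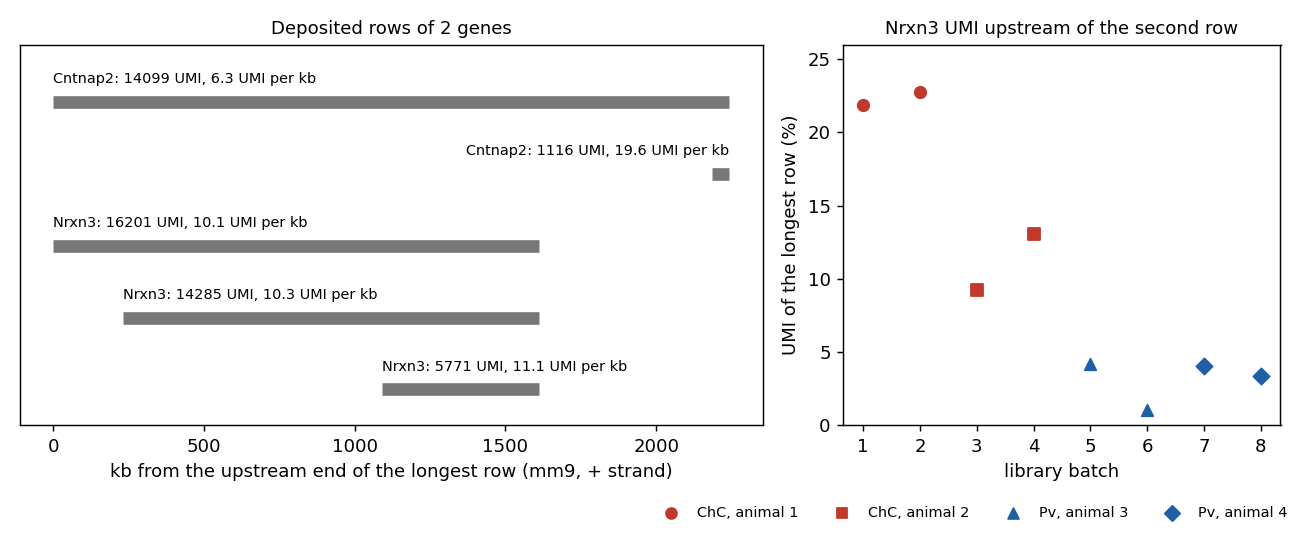
Left, the deposited rows of *Cntnap2* and *Nrxn3* drawn to scale in kb from the upstream end of each gene's longest row, with their UMI and UMI per kb. Right, the percentage of the UMI of the longest *Nrxn3* row that lies upstream of the second row, by library batch, at 9.24% to 22.8% in ChC and 1.03% to 4.2% in Pv. The Pv percentages rest on few UMI.

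Levels of different genes are set side by side here as CPM of the batch total per 100 kb of the span of the gene's longest row. Over all rows with a UMI, the median was 69 UMI in the tenth of rows with the shortest spans, up to 4.58 kb, and 425 UMI in the tenth with the longest, from 129 kb. UMI thus rose far less than the span did, so short genes come out high on this scale and the order below follows length in part. In ChC *Nlgn2* was highest on this scale, at 554 ± 306, followed by *Nrxn2* at 409 ± 197 and *Nrxn3* at 168 ± 84.3 (SD, n = 4 each). *Gphn* at 124 ± 85.6, *Cntnap2* at 108 ± 24, *Nlgn3* at 69.5 ± 79.7, *Nlgn1* at 68.3 ± 21.8 and *Dag1* at 60.9 ± 81.4 followed, and *Il1rapl1* was lowest at 21.8 ± 6.59. Neighbours in this order differed by less than the larger SD, except *Nrxn2* and *Nrxn3*. In Pv *Nlgn2* at 370 ± 213 and *Nrxn2* at 226 ± 122 were highest, and *Dag1* came next at 124 ± 160. *Nrxn3* at 75.6 ± 40.3, *Gphn* at 71.4 ± 46.3, *Il1rapl1* at 46.9 ± 33.6, *Nlgn1* at 46.6 ± 16.7 and *Cntnap2* at 42.6 ± 7.48 followed, with *Nlgn3* lowest at 17.3 ± 34.6. All neighbours in the Pv order differed by less than the larger SD. The annotated exon share of the span is 43% for *Nlgn2* and 0.215% for *Il1rapl1*, and how many tags came from exons was not measured.

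Genes of the same pathways were taken from 6 lists with 125 genes, of which 107 were tested. None passed with edgeR per animal, 13 had an unadjusted p under 0.05 (6.27% of all genes tested did), and DESeq2 called 1 (*Sgcd*), where it called 151 of all 9829 genes. Of 85 tested with batches as samples, 4 had all ChC batches above all Pv batches and 3 the reverse, where over all genes the shares were 2.89% and 1.77%. The lists were not tested as sets. Of 22 neurexin ligands and other trans-synaptic partners, 12 were tested, 10 were higher in ChC and 2 in Pv, and the median log2 fold change was 1.72. With batches as samples, 7 genes of this list had enough UMI to be tested, so the median includes genes of low count. *Clstn2*, a calsyntenin, was at 1537 ± 358 CPM in ChC and 342.5 ± 230 CPM in Pv, with no overlap of batches (log2 fold change 2.25, adjusted p = 0.598 from edgeR). *Mdga2*, which binds neuroligins and blocks their contact with neurexins, was at 735 ± 248 CPM in ChC and 276 ± 118 CPM in Pv, also without overlap (log2 fold change 1.46, adjusted p = 0.779). *Nxph1*, the secreted neurexin ligand neurexophilin 1, was at 1034 ± 758 and 370 ± 163 CPM, with overlap (SD, n = 4 batches for each).

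Among the LAR-type receptor phosphatases and their ligands, 17 of 19 were tested, 7 were higher in ChC and 10 in Pv, and the median log2 fold change was -0.16. *Ptprd*, the partner of *Il1rapl1*, was at 1675 ± 270 CPM in ChC and 907 ± 206 CPM in Pv without overlap of batches (log2 fold change 0.92, adjusted p = 0.841 from edgeR), while *Il1rapl1* itself was fitted as higher in Pv. *Il1rapl2*, its paralog, was at 515 ± 680 and 1032 ± 419 CPM, and the phosphatase *Ptprs* at 717 ± 448 and 877 ± 358 CPM, both with overlap. *Lrfn5*, an adhesion protein that binds these phosphatases, had all Pv batches above all ChC batches, at 277 ± 127 and 41.7 ± 25.7 CPM (log2 fold change -2.58, adjusted p = 0.704).

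All 21 gephyrin partners and inhibitory postsynaptic genes were tested, with 8 higher in ChC, 13 in Pv and a median log2 fold change of -0.27. Those with the most UMI overlapped between cell types. *Magi2*, a scaffold protein, was at 1918 ± 972 CPM in ChC and 1965 ± 988 CPM in Pv, the dynein light chain *Dynll2* at 1958 ± 754 and 1478 ± 433 CPM, and *Gabarapl1* at 473.5 ± 138 and 597 ± 432 CPM. *Kif5c*, a kinesin heavy chain, was higher in all Pv batches, at 836 ± 489 against 239 ± 132 CPM (log2 fold change -1.72, adjusted p = 0.726 from edgeR).

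Of the 28 genes of the dystroglycan complex and its glycosylation, 23 were tested, with 15 higher in ChC, 8 in Pv and a median log2 fold change of 0.40. *Sgcz*, a sarcoglycan, was at 872 ± 432 CPM in ChC and 207 ± 273 CPM in Pv, and the syntrophin *Sntg1* at 792 ± 355 and 327 ± 146 CPM, both with overlap. *Large*, a glycosyltransferase that acts on dystroglycan, was at 368 ± 27.9 and 420 ± 238 CPM. *Sgcd*, another sarcoglycan, had all ChC batches above the Pv batches, at 121 ± 93.3 and 10.1 ± 14.2 CPM (log2 fold change 4.14, adjusted p = 0.673 from edgeR).

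In the contactin and Caspr family with its band 4.1 anchors, all 20 genes were tested, with 12 higher in ChC, 8 in Pv, and a median log2 fold change of 0.33. None of the 18 tested with batches as samples was without overlap of batches, and *Cntnap2*, described above, is not counted in this list. The adhesion gene *Cntn5* was at 2450 ± 708 CPM in ChC and 1599 ± 766 CPM in Pv, *Cntn4* at 953 ± 919 and 696.5 ± 241 CPM, and *Cntn1* at 923 ± 781 and 562 ± 156 CPM. Of 15 cytoplasmic scaffolds of neurexins and neuroligins, 14 were tested, 6 higher in ChC and 8 in Pv, with a median of -0.14. The scaffold *Dlg2* was at 2216 ± 567 and 2251 ± 1006 CPM, and *Magi1* at 891 ± 412 and 609 ± 393 CPM. *Apba2*, an adaptor of the neurexin tail, was higher in all Pv batches, at 379 ± 157.5 against 80.0 ± 57 CPM (log2 fold change -2.46, adjusted p = 0.647 from edgeR). The genes named for lack of overlap outside the 3 with the most UMI of a list (*Lrfn5*, *Kif5c*, *Sgcd* and *Apba2*) were chosen after their values were seen.

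For genes seen in at least 50% of cells, the genes most like them were sought by the Spearman correlation of CPM over the cells of each batch, averaged over the 8 batches, among 5164 other genes. The highest means were low. They were 0.333 and 0.330 for *Nrxn2* (*Ptp4a2* and *Actn1*), 0.372 and 0.347 for *Nrxn3* (*Adprh* and *Spock1*), and 0.426 and 0.368 for *Nlgn1* (*Adarb2* and *Gria3*). For *Nlgn2* they were 0.478 and 0.427 (*Naa15* and *Eya2*), and for *Gphn* 0.340 and 0.334 (*1700123I01Rik* and *Clock*). For *Cntnap2* they were 0.372 and 0.328 (*Nrsn1* and *Btbd3*), and for *Il1rapl1* 0.353 and 0.352 (*Pkhd1* and *Mageb18*). The SD of these correlations over batches ran from 0.147 to 0.377. Among the 9 genes themselves, no pair of those seen in at least 50% of cells had a mean correlation above 0.130. With cells under 10000 UMI left out, the highest was 0.169 (*Nrxn3* and *Gphn*), and with UMI not divided by the cell total the pairs ran from 0.612 (*Nlgn2* and *Il1rapl1*) to 0.940 (*Nrxn3* and *Cntnap2*). With up to 16 cells a batch that share a library, these values describe the batches and single out no partner.

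Markers of other cells were present at levels that differed between batches. The 7 pyramidal neuron markers summed to 48.7, 516, 63.4 and 911 CPM in ChC batches 1 to 4 and to 534, 1062, 1469 and 164 CPM in Pv batches 5 to 8. *Camk2a* was the most abundant of these, and *Neurod6*, *Emx1* and *Tbr1* had no UMI. The 6 astrocyte markers summed to 60.3, 491, 328 and 1021 CPM in ChC and to 42.8, 16.2, 1215 and 218 CPM in Pv, led by *Slc1a2*, with *Gfap* at 0. *Dag1* was highest in batch 7, where both sums were also highest, and it was next highest in batch 3, where they were not. The part of other cells in the levels of the 9 genes was not tested.

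The 6 oligodendrocyte markers, of which *Mbp* had the most UMI, summed to between 10.5 and 280 CPM with *Mobp* and *Mag* at 0, and *Cnp* made up 278 of the 280 CPM in batch 6. The 4 precursor markers reached at most 55.5 CPM, the 6 microglial markers at most 101 CPM and the 4 endothelial markers at most 18.2 CPM. The 7 markers of other interneurons reached 1177 CPM in batch 4, where *Reln* (459 CPM) was highest, followed by *Npy* and *Cck* (326.5 CPM), with *Vip* at 0. The 8 GABAergic markers summed to between 2790 and 6198 CPM. Of the 5 markers of parvalbumin cells, *Kcnc1* had the most UMI. These 5 summed to 2105, 3340, 752 and 1287 CPM in ChC batches 1 to 4. In Pv batches 5 to 8 they summed to 2454, 2481, 1744 and 3823 CPM, so the cell types overlapped in this sum.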

How the data were processed

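Per the labels and the study's methods, RNA of single cells was amplified linearly, libraries were sequenced, and the authors aligned reads to mm9 with Bowtie 0.12.7, counted tags per transcript and deposited these counts without normalization. The gene annotation behind the rows is not given in the sources used here. The table has 27207 rows and 128 cell columns, of which 2 cells without a count were left out.

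Rows were summed per gene name. This was the plan unless over 50% of genes with several rows had identical rows, and 39.6% (883 of 2229) did. In 95.4% (2127 of 2229), 1 row was at least as high as every other row in every cell, so sums can hold a molecule more than once. Counts per animal were tested with edgeR 4.0.16 (TMM, filterByExpr, quasi-likelihood test, threshold 0.05) in R 4.3.3, and the scripts were tested on simulated data. Standard errors were taken from the fold change and its F statistic. DESeq2 1.42.0, other filters, depths, units and left-out samples were alternatives. Levels, shares, spread and likeness were computed in Python with numpy, scipy and pandas, without a test. Row starts are given 1-based, since 14473 of 25261 rows matched an annotated start 1 base later and 909 the same base. Exons are from GENCODE vM1.

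Named are the 9 genes, in each of 6 lists the 3 genes with the most UMI and any past the threshold, *Pvalb*, *Nkx2-1*, *Gad1*, *Gad2* and *Slc32a1* as checks, and for each gene in at least 50% of cells the 2 most like it. A few genes that these rules name are not reported here. *Nkx2-1* was at 132 ± 15.9 CPM in ChC and 94.6 ± 53.7 CPM in Pv, *Gad1* at 1131 ± 553 and 1424 ± 899.5 CPM, and *Gad2* at 623 ± 331 and 204 ± 195 CPM (SD, n = 4). The members and lists were chosen with earlier results of these data known. The comparison of pairs of cells and of row segments was added after the data were seen.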

Additional observations from a re-analysis of the deposited data

Results flagged for a closer look

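In groups of 4 batches, a batch was marked where its gap to the nearest other batch over the group's whole range exceeded Dixon's critical value for 4 values. Chance marks about 1 in 20 groups of independent values. The 4 batches of a group came from 2 animals, which this rate ignores. Of 18 groups, 3 had such a batch. *Nlgn1* was at 695 CPM in ChC batch 3, far below the other ChC batches. *Il1rapl1* was at 493 CPM in ChC batch 2, above the others, which lay between 272 and 293 CPM. *Nlgn3* was at 17.6 CPM in Pv batch 5 and at 0 in the other Pv batches. With 3 batches at 0 any other value is marked, so the chance rate does not apply to this group. The cause was not tested.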

How the results depend on the processing

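The count of genes past the threshold was 0 with edgeR on animals. It was 151 with DESeq2, 80 with no filter on low counts, 5 with batches as samples, 1 with cells thinned to 10000 UMI, and 3 with each transcript row as a feature, a setting chosen after seeing the data. It was 0 with the row of the most UMI and with cells under 10000 UMI left out, where 618 and 609 genes had an unadjusted p under 0.05. Leaving out each animal gave 7 to 100 genes and, with batches as samples, each batch 0 to 5 genes. A lone animal in a group is then assumed to vary like the others. Leaving out animals 1, 2, 3 and 4 moved the median log2 fold change of all genes to -0.08, -0.30, 0.20 and 0.58, from 0.04. None of the 9 genes passed under any of these settings, though *Nlgn3* was not tested in all of them and had no adjusted p from DESeq2. *Pvalb* passed with DESeq2 (adjusted p = 0.0249) and, in edgeR, with no filter on low counts (adjusted p = 0.0133). The cause of the differences was not tested.

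The log2 fold changes of *Nrxn2*, *Nrxn3*, *Nlgn1*, *Nlgn2*, *Nlgn3*, *Cntnap2* and *Il1rapl1* kept their direction under every alternative that could be run, and *Nlgn3* was too sparse to be tested in 8 of them. Without animal 4, though, *Nlgn1* (0.40) and *Gphn* (0.37) lay below the median of all genes, and without animal 3 *Nlgn2* was level with it, so there the sign does not set them apart from other genes. *Gphn* reversed without animal 1 (-0.38), and *Dag1* without animal 1 (0.48), animal 4 (3.32) or, with batches as samples, batch 7 (0.39). With an animal or batch left out, the values ran from 0.44 to 1.5 for *Nrxn2*, 0.76 to 1.59 for *Nrxn3*, 0.32 to 0.99 for *Nlgn1*, 0.19 to 1.44 for *Nlgn2*, 0.70 to 7.88 for *Nlgn3*, -0.38 to 1.93 for *Gphn*, -2.33 to 3.32 for *Dag1*, 1.09 to 1.64 for *Cntnap2* and -1.38 to -0.40 for *Il1rapl1*. With each transcript row as a feature, the short row of *Cntnap2* was at 0.59. The 7.88 of *Nlgn3* is without animal 3, where Pv has no UMI, and is no bound. *Gad1* reversed without animal 1 (0.13), animal 3 (0.22) or batch 6 (0.20), with a range of -1.24 to 0.22 over samples left out. *Slc32a1* reversed with thinned cells (0.051), without animal 2 (0.05) or 3 (0.25), and without batches 1 (0.10), 3 (0.02), 4 (0.02), 5 (0.30) or 8 (0.00), with a range of -0.31 to 0.30.

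Shares of cells moved by more than the SD between batches as follows. With 5000 UMI per cell, *Nrxn2* was at 84.1% (ChC) and 66.9% (Pv), *Nlgn1* at 99.1% and 95.3%, *Nlgn2* at 24.7% and 18.8%, *Nrxn3* at 100% and 99.99%, *Cntnap2* at 100% and 99.4%, and in ChC *Gphn* at 83.4% and *Il1rapl1* at 76.6%. Unthinned, *Nlgn1* was at 98.4%, *Nlgn2* at 73.2% (Pv 66.3%), *Nlgn3* at 43.5% and *Il1rapl1* at 98.4% in ChC. With the row of the most UMI, *Nlgn1* was at 99.6% (ChC) and 98.3% (Pv) and *Nrxn3* at 100% and 99.99%, and the spread of *Nlgn1* over cells fell to 1.13, a setting for spread chosen after seeing the data. With UMI not divided by the cell total, correlations rose to 0.753 and 0.690 for *Nrxn2*, 0.776 and 0.912 for *Nrxn3*, 0.830 for *Nlgn1* with *Gria3*, 0.779 for *Gphn* with *Clock*, and 0.884 and 0.889 for *Cntnap2*. Batches held 370238 to 2898413 UMI. No paired analysis was possible because the batch numbers are not shared between cell types.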
